A study of Mus musculus with 21 samples.

Results

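The genes described here drive or mark cell division: cyclins and their kinases, the inhibitors of those kinases, growth-related transcription factors, DNA replication proteins, mitotic kinases and checkpoint proteins, spindle and kinetochore proteins, and the proliferation markers Mki67 and Top2a. They are a fixed list of 45 gene symbols, and each was read from the array probe set (transcript cluster) annotated with that symbol alone, the cluster with the highest mean where a gene had several. This gave 43 of the 45 genes, out of 22180 genes measured in the series. Ccnb1, cyclin B1, had no cluster annotated with its symbol alone, and Ccne2, cyclin E2, appeared only in a cluster annotated with several symbols, so neither was used.

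The cells were osteoblasts, the bone-forming cells, grown from calvaria, the flat bones roofing the skull, of C57BL/6J mice that were 7 to 10 days old. All 7 groups shared the same handling: cells at passage 2, differentiation medium with beta-glycerophosphate and ascorbic acid from day 3 to day 10, 24 h without serum in medium with bovine serum albumin, and then 4 h of treatment. The treatments were vehicle, hPTH(1-34), hPTH(1-31), PTH(1-36), bPTH(3-34) or hPTH(7-34) at 100 nM, and, at 1000 nM, bPTH(7-34), the amide of bovine PTH(7-34) that carries the changes D-Trp12 and Tyr34. These are fragments of parathyroid hormone (PTH), which acts on osteoblasts through a receptor coupled to cyclic AMP; the 3 that begin at the first residue of the hormone are called intact analogs here, and the 3 that lack it are called truncated analogs. Each group had 3 arrays (Mouse Gene 2.0 ST, labelled from 100 ng of total RNA), 21 in all, from osteoblasts that were prepared independently for each replicate.

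A cell that enters the division cycle first makes D-type cyclins, which with Cdk4 and Cdk6 release E2F transcription factors from the retinoblastoma protein and so allow the genes of DNA replication to be transcribed. Later, cyclin A and cyclin B with Cdk1 take the cell through G2 into mitosis, where the spindle, the kinetochores and the spindle checkpoint separate the chromosomes. Genes of the late phases are known to carry promoter elements in common, such as the cell cycle genes homology region (CHR) and CCAAT boxes, while many replication genes carry E2F sites. Cells that stop dividing, as osteoblasts do when they differentiate or when serum is withdrawn, make less of most of these transcripts.

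Promoter sequences are shown for 6 late-phase genes, 5 of them called in at least 1 comparison below and Top2a, which was called in none. They come from a RefSeq table of mouse promoters (GRCm38.p6) that held windows of 250 bases before to 50 bases after the gene start for 32 of the 43 genes, and for each the 100 bases before the table's start are printed 5′ to 3′ on the gene's strand. Capitals mark matches on either strand, which may overlap. The letters searched for the CHR were TTTGAA or the variant TTCGAA, and those of the CCAAT box were as its name. For E2F they were TTGGCGC or the variant TTCGCGC, and for the half-site of the cyclic AMP response element TGACG. The windows are Cdc20 at chr4:118437344-118437443 (minus strand), Kif11 at chr19:37376282-37376381 (plus), Cenpe at chr3:135212463-135212562 (plus), Mki67 at chr7:135716380-135716479 (minus), Bub1 at chr2:127831860-127831959 (minus) and Top2a at chr11:99024190-99024289 (minus).
Cdc20: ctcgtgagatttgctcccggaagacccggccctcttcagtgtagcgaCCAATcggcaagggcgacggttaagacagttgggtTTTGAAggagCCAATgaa
Kif11: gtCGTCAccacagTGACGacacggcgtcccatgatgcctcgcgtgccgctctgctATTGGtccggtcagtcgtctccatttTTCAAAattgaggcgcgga
Cenpe: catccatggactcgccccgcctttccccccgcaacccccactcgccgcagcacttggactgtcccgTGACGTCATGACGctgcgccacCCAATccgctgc
Mki67: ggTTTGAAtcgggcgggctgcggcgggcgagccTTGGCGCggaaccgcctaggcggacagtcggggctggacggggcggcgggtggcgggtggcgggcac
Bub1: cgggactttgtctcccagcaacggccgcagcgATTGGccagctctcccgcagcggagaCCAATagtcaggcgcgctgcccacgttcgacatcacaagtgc
Top2a: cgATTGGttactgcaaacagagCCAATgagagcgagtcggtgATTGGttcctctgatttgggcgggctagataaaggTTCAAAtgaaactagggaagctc

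Over the 300-base windows, a CHR match was present in 11 of the 15 genes of G2, mitosis and proliferation that had a window (73.3%), against 21.7% of the 27025 genes in the table. CCAAT was present in 12 of those 15 (80.0%), against 41.1% of the genes. An E2F match was present in 3 of 8 replication genes (37.5%), against 4.47% of the genes. The half-site TGACG was present in 14 of all 32 genes (43.8%) and in 5 of the 15 (33.3%), against 23.0%. Top2a, whose signal differed by no more than 0.10 log2 units from vehicle in any group, had 4 CHR and 6 CCAAT matches in its window. A match describes the letters of the window only.

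Array medians were close (3.49 to 3.61 log2 units), and no 2 arrays held identical values. Within a group, pairs of arrays had correlations over genes of 0.990 to 0.993. All 43 genes lay above the median gene's signal of 4.42, from Cdc25c with a mean of 4.74 to Cdkn1a with 11.05, and their spread within groups was smaller than that of most genes (median residual SD 0.112, against 0.182 over all genes). The share of genes called among the 11090 genes above the median signal is therefore given beside the share over all genes. The culture held more than osteoblasts. With vehicle, the osteoblast markers Col1a1 (13.2), Col1a2 (12.9), Postn (12.3), Alpl (8.93), Pth1r (7.21), Ibsp (6.65) and Sp7 (5.94) lay above the median gene. The late osteoblast marker Bglap, at 3.73, lay below it. All 10 macrophage and osteoclast markers lay above the median gene, with Csf1r at 10.2, Cd68 at 11.3 and Lyz2 at 12.2. Of 5 cartilage markers, Sox9, Col2a1 and Comp were at 9.58, 8.05 and 8.02, while Acan and Col9a1, at 4.78 and 4.86, were near the median gene. The cell type in which a cell cycle gene changed was not determined, and in such bulk cultures fewer cells of a type and less RNA per cell cannot be told apart.

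With hPTH(1-34), 9 of the 43 genes fell and none rose. They were Ccnd1, Myc, Mcm6, Bub1, Cdc20, Kif11, Kif20a, Tpx2 and Mki67, with log2 differences from -0.28 to -0.50 (limma, adjusted p = 0.0126 to 0.0468 over all 22180 genes). The 9 genes are 20.9% of the 43, where 4.74% of all genes and 8.85% of the genes above the median signal fell by the same test. The median difference over the 43 genes was -0.22 and over all genes -0.01, with 38 of 43 and 52.1% of all genes below 0. In 27 of the 43 all 3 arrays lay below all 3 vehicle arrays, against 12.9% of all genes. The share among genes of similar signal and spread is not given for this count. The 43 genes had a smaller spread than most genes, so all genes are not a like background for it. None of the 9 calls held under every omission of 1 array, and without any 1 of the 6 arrays 3 or 4 of the 43 genes were called. When only the 6 arrays of these 2 groups entered the fit, which leaves fewer arrays to estimate the spread, 0 were called. The share of all genes called in that fit is not given here, so this 0 cannot be read as particular to the 43 genes.

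The other 2 intact analogs had fewer calls. With hPTH(1-31), Ccnd1, E2f1 and Cdc20 fell and none rose, 6.98% of the 43, where 4.32% of all genes and 8.09% of those above the median signal fell. With PTH(1-36), Myc, Cdc20 and Mki67 fell and none rose, again 6.98%, where the shares were 3.54% and 6.46%. These counts are close to the share among genes of similar signal. The median difference of the 43 genes was -0.11 with hPTH(1-31), with 34 below 0, and -0.07 with PTH(1-36), with 31 below 0. Of all genes, 53.1% were below 0 with hPTH(1-31) and 53.4% with PTH(1-36). All 3 treated arrays lay below vehicle for 14 genes with hPTH(1-31), where 11.9% of all genes did so. With PTH(1-36) they did so for 11 genes, where 10.9% of all genes did. These shares too are over all genes and not over genes of similar signal and spread. Cdc20 was the 1 gene called with each of the 3 intact analogs. In the fits limited to the arrays of the 2 groups compared, 0 of the 43 were called with either analog, again without the share of all genes.

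The truncated analogs had no calls among the 43 genes by limma. With bPTH(3-34), 0 genes of all 22180 were called (0% of genes), and the median difference of the 43 was +0.02. An unadjusted p under 0.05 was reached by 1 of the 43 and by 1313 of all genes. With hPTH(7-34), 0.0721% of all genes were called and none was a cell cycle gene. The median was +0.03, and 2 of the 43 passed an unadjusted p under 0.05, where 1817 of all genes did. With quantile normalization the medians with bPTH(3-34) and hPTH(7-34) were just below 0 (-0.005 and -0.012). With bPTH(7-34) at 1000 nM, again 0% of genes were called. The median was -0.06 with 33 of 43 below 0, where 51.8% of all genes were below 0. There, 2 of the 43 and 1151 of all genes passed an unadjusted p under 0.05. The 6 comparisons with vehicle share the vehicle arrays, so their values are not independent of each other. A moderated F test over all 6 called 10 of the 43 genes (Ccnd1, Myc, Cdc20, Mki67, Cdkn1a, Mad2l1, Kif20a, Cenpf, Kif11 and Bub1), or 23.3%, where 12.2% of all genes and 21.7% of those above the median signal were called, so the share is close to that of genes of similar signal. The count was 4 to 10 when 1 array was left out.

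**Figure D1:**
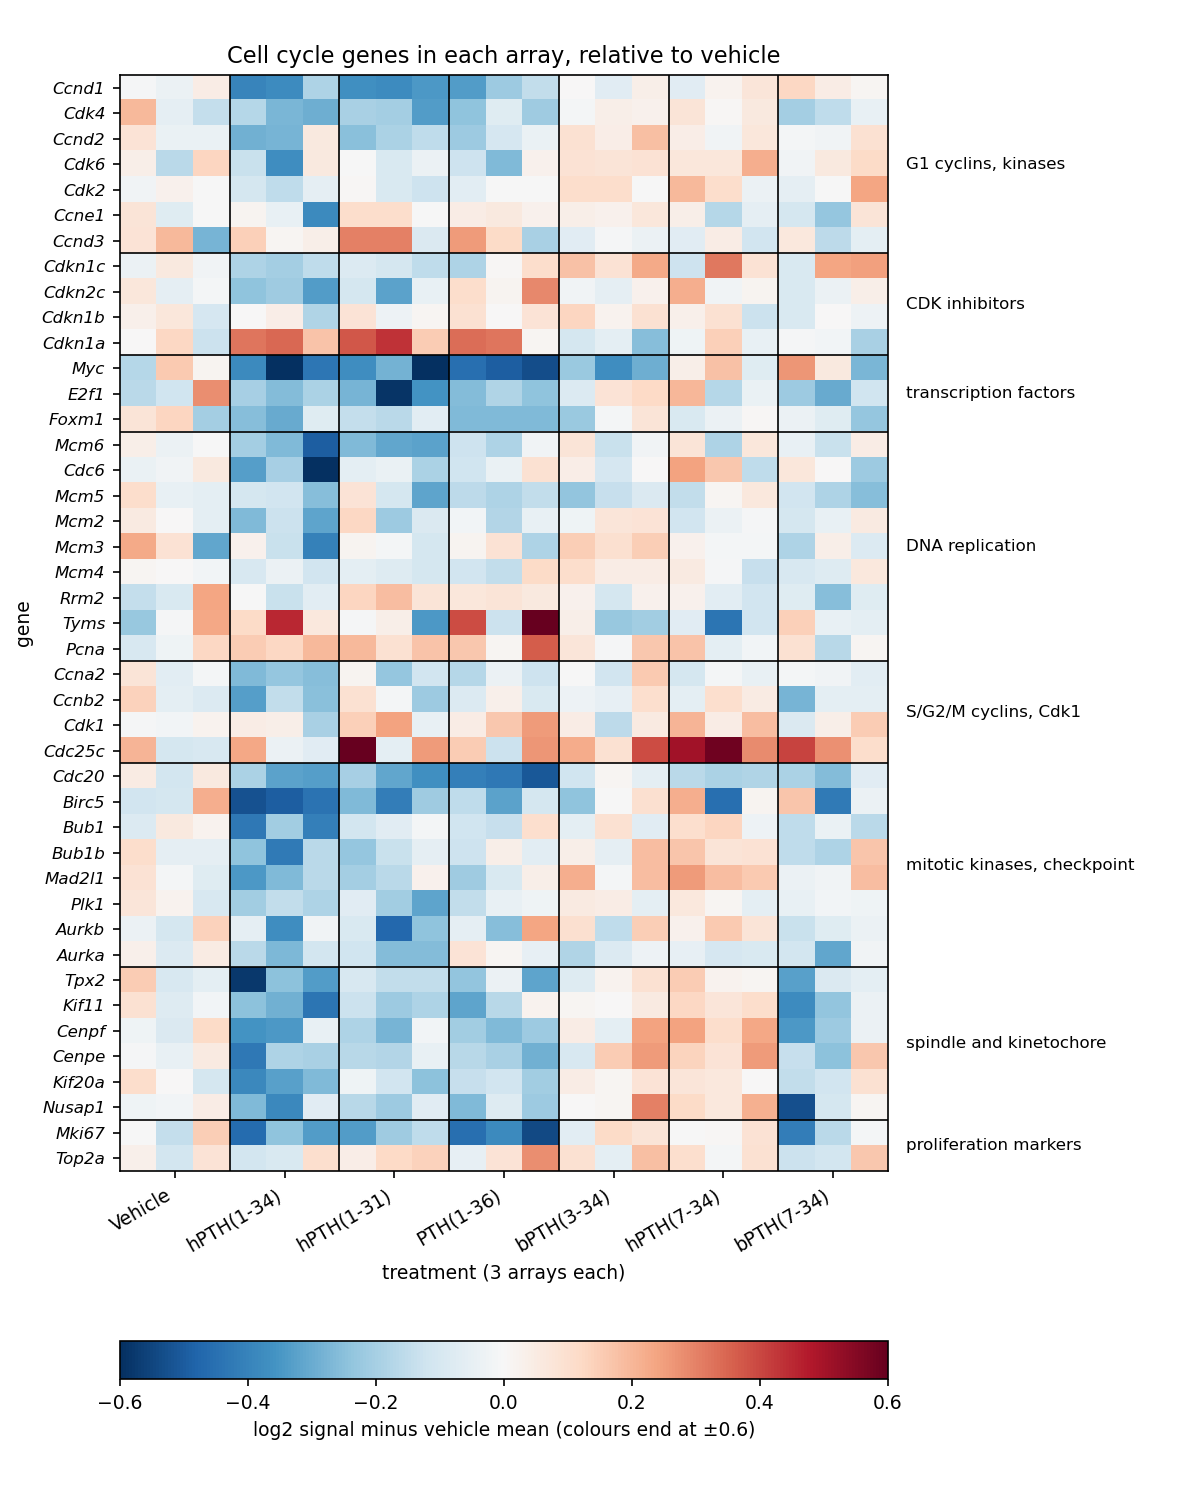
Log2 signal of each of the 43 cell cycle genes in every array, minus the gene's vehicle mean, with genes in rows grouped by role and the 21 arrays in columns grouped by treatment (3 each; 100 nM, bPTH(7-34) at 1000 nM). Blue is below and red above the vehicle mean, and colours end at plus or minus 0.6; most rows are blue in the hPTH(1-34) columns, where 38 of 43 genes had a mean below vehicle, and paler in those of hPTH(1-31) and PTH(1-36).

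The mean over the 43 genes of each array's difference from the vehicle mean describes how even the arrays of a group were. It was -0.18, -0.19 and -0.19 log2 units in the 3 hPTH(1-34) arrays, which were the lowest of the 21. It was -0.05, -0.13 and -0.13 with hPTH(1-31), and -0.10, -0.10 and -0.04 with PTH(1-36). The vehicle arrays lay between -0.03 and 0.02, those of bPTH(3-34) between -0.02 and 0.07 and those of hPTH(7-34) between 0.02 and 0.07, so the 9 intact arrays all lay below these 9. The bPTH(7-34) arrays, at the higher dose, were at -0.09, -0.09 and -0.01 and overlapped hPTH(1-31) and PTH(1-36).

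**Figure D2:**
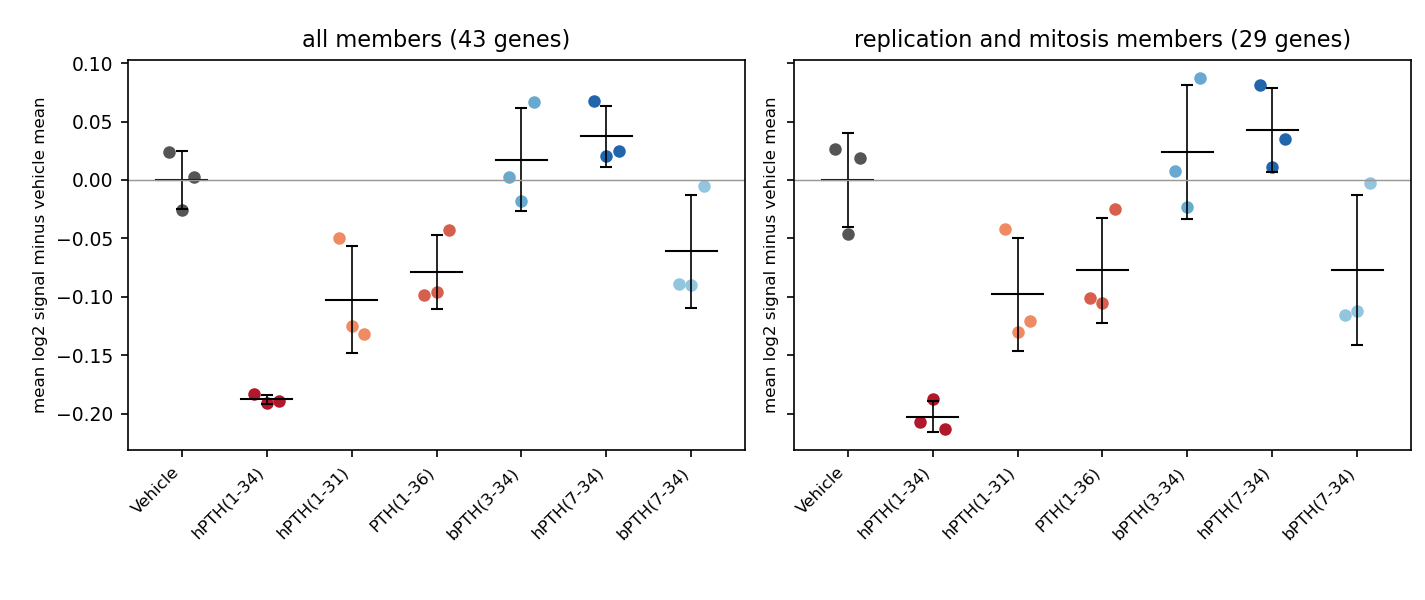
Mean log2 difference from the vehicle mean in each array (points), over all 43 genes on the left and over the 29 genes of replication, mitosis and proliferation on the right, for the 7 groups; lines are group means and bars the SD of 3 arrays. The 3 hPTH(1-34) arrays lie between -0.18 and -0.19 over the 43 genes, below all other arrays.

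To narrow the error of small changes, the mean of the 3 intact analogs was compared with vehicle and with each truncated analog used at 100 nM. The comparisons with the truncated analogs use no vehicle arrays, though all 3 share the intact arrays. Against vehicle, 5 genes fell and none rose (Ccnd1, Myc, Mcm6, Cdc20 and Mki67), which is 11.6% of the 43, where 6.49% of all genes and 11.9% of those above the median signal fell. Against bPTH(3-34), 10 genes fell, 23.3%, where the shares were 7.23% and 13.5%, and Cdkn1a rose, where 5.33% of all genes and 8.97% of those above the median signal rose. Against hPTH(7-34), 13 genes fell and none rose, 30.2%, where the shares were 9.22% and 17.3%. The median differences of the 43 genes were -0.15, -0.17 and -0.19 in that order. When 1 array was left out the counts ranged over 3 to 7, 4 to 13 and 6 to 14. Macrophage and osteoclast markers differed in the same direction in the comparisons with truncated analogs: 9 of 10 were below 0 against hPTH(7-34), with a median of -0.19 and 0 called, 8 of 10 against bPTH(3-34), with a median of -0.12, and 6 of 10 against vehicle, with a median of -0.04; in each of these last 2 comparisons 1 marker was called, upward. The mean level of the 10 markers was 8.95 to 9.23 in the 9 intact arrays and 9.17 to 9.34 with hPTH(7-34), and their part in the result was not tested. Of 8 osteoblast markers, 1 rose and 2 fell in each of the 3 comparisons (37.5% called). The shares of all genes called in either direction were 11.9%, 12.6% and 14.9% against vehicle, bPTH(3-34) and hPTH(7-34). The part of the osteoblast markers was not tested either.

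**Figure D3:**
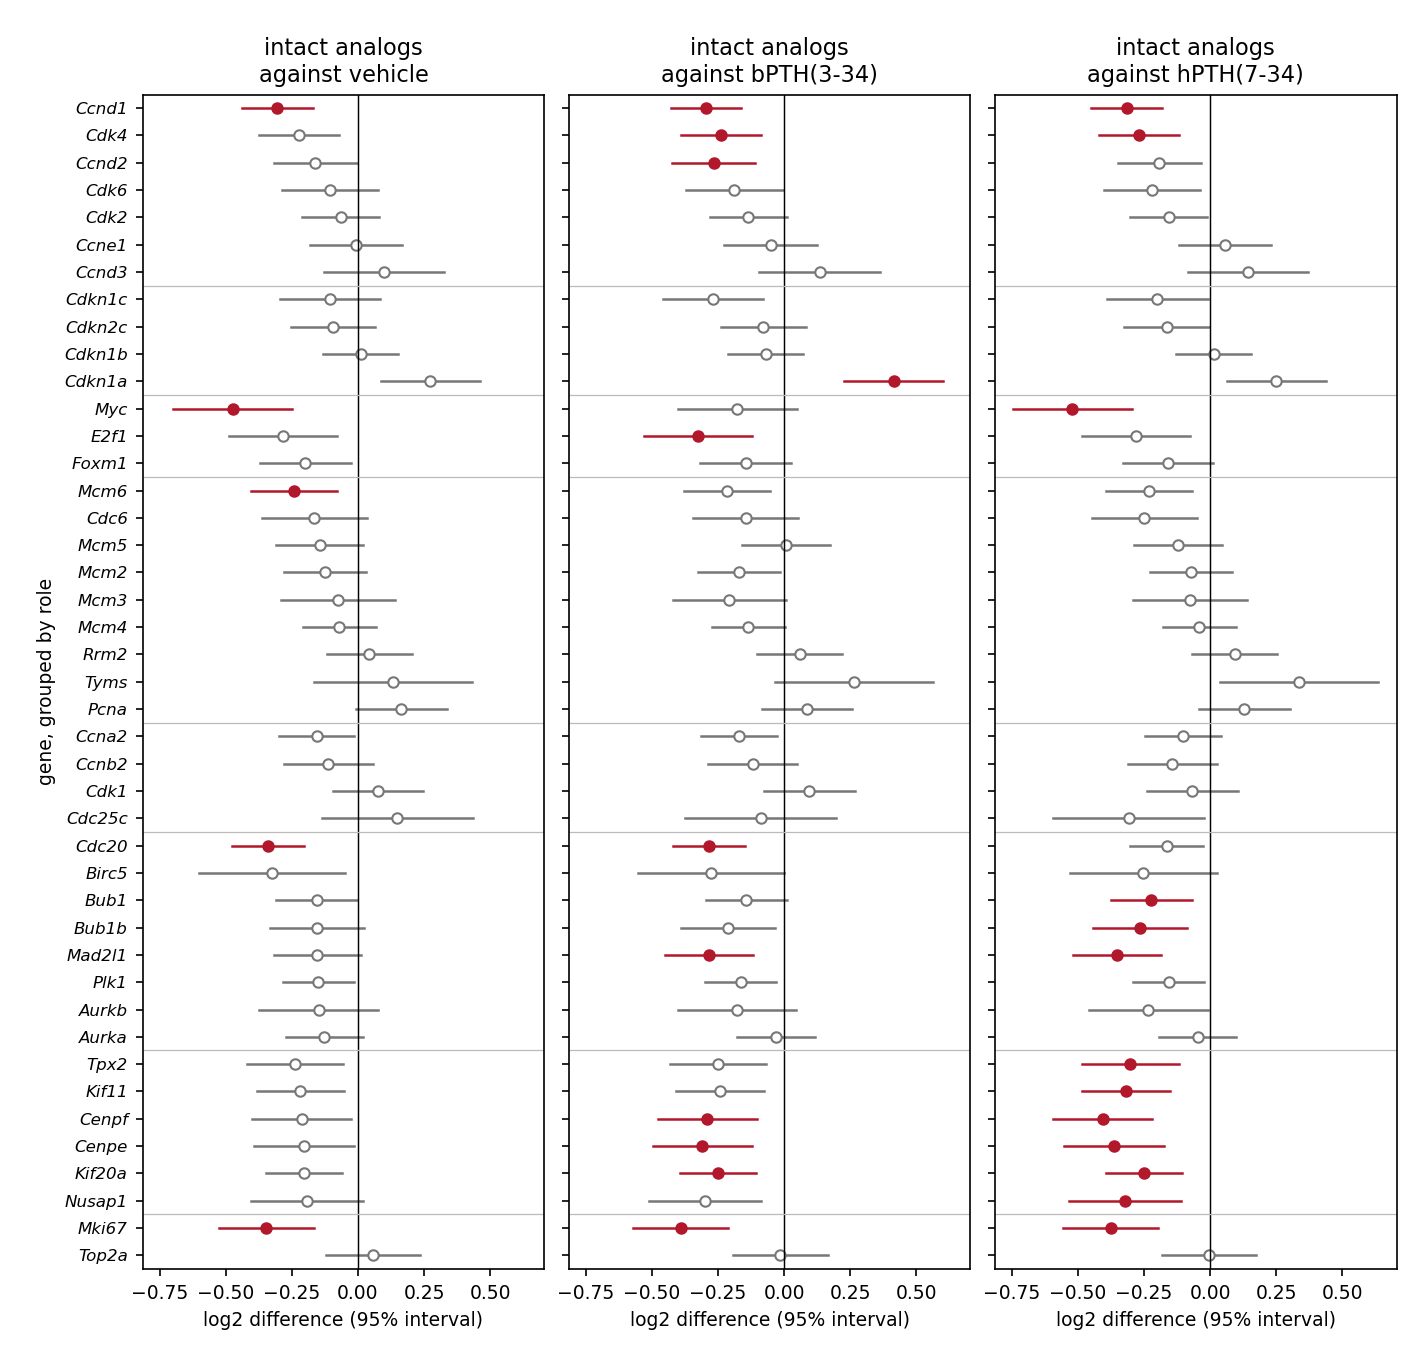
Log2 difference between the mean of the 3 intact analogs and vehicle (left), bPTH(3-34) (centre) and hPTH(7-34) (right) for each of the 43 genes, grouped by role, with 95% intervals from limma. Filled red points passed an adjusted p under 0.05: 5 genes on the left, 11 in the centre, where Cdkn1a alone is to the right of 0, and 13 on the right, including all 6 spindle and kinetochore genes.

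Among the 7 G1 cyclins and their kinases, Ccnd1, Ccnd2 and Cdk4 were called in at least 1 comparison, each downward. Only Ccnd1 was called against vehicle. The share of all genes called in at least 1 of the 11 comparisons is not given here. Counts over all comparisons, here and for the groups below, therefore have no background. Ccnd1 encodes cyclin D1, the cyclin that growth signals induce to start the cycle (cluster 17498502; gene at chr7:144929931-144939831, GRCm38.p6). Its log2 signals were 9.74, 9.71 and 9.79 in the vehicle arrays, 9.35, 9.37 and 9.56 with hPTH(1-34), 9.38, 9.37 and 9.40 with hPTH(1-31), and 9.41, 9.53 and 9.60 with PTH(1-36). The truncated analogs gave 9.75, 9.68 and 9.78 with bPTH(3-34), 9.68, 9.77 and 9.82 with hPTH(7-34) and 9.87, 9.79 and 9.76 with bPTH(7-34). Every intact array was thus below every vehicle and truncated array. The difference from vehicle was -0.32 ± 0.08 (log2, SE; limma, adjusted p = 0.0126) with hPTH(1-34), -0.36 ± 0.08 (adjusted p = 0.00475) with hPTH(1-31) and -0.23 ± 0.08 with PTH(1-36), where it was not called (adjusted p = 0.0841). Averaged over the intact analogs, Ccnd1 was 19.1% lower than with vehicle (adjusted p = 0.00282), 18.5% lower than with bPTH(3-34) (adjusted p = 0.00365) and 19.6% lower than with hPTH(7-34) (adjusted p = 0.00195). These 3 calls and that of hPTH(1-31) held without any 1 array, while the hPTH(1-34) call was lost without its replicate 1 or 2 (adjusted p up to 0.0676).

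Cdk4, the kinase partner of the D cyclins, had vehicle signals of 10.08, 9.83 and 9.74, and 9.55 to 9.81 over the 9 intact arrays, so that the vehicle and intact groups overlapped. It was called against bPTH(3-34) (-0.24 ± 0.07, adjusted p = 0.0352) and against hPTH(7-34) (-0.27 ± 0.07, adjusted p = 0.0158), but not against vehicle (-0.22 ± 0.07, adjusted p = 0.0531). The call against hPTH(7-34) was lost without replicate 1 or 3 of that analog, and the call against bPTH(3-34) under 7 of 12 omissions: any bPTH(3-34) array, hPTH(1-34) replicate 2 or 3, hPTH(1-31) replicate 3 or PTH(1-36) replicate 1. Ccnd2, cyclin D2, had 10.66, 10.54 and 10.54 with vehicle, 10.67, 10.62 and 10.76 with bPTH(3-34) and 10.29 to 10.64 over the intact arrays. It fell against bPTH(3-34) only (-0.27 ± 0.07, adjusted p = 0.0240), a call lost without bPTH(3-34) replicate 1 or 3. Of the remaining 4 genes of this group, Cdk6 (-0.10) and Cdk2 (-0.07) had small differences from vehicle with the intact analogs, Ccne1 (cyclin E1) was at -0.01 and Ccnd3 (cyclin D3) at +0.10, and none was called in any comparison. Of the 3 D-type cyclins, Ccnd1 was thus called against vehicle and Ccnd2 against bPTH(3-34) only. The difference between those cyclins was not tested.

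Of the 4 inhibitors of cyclin-dependent kinases, 1 was called, and upward. Cdkn1a, which encodes p21, the inhibitor induced by p53 and by many differentiation signals (cluster 17335467; chr17:29090979-29100722), had 10.96, 11.08 and 10.83 with vehicle, 11.28, 11.30 and 11.13 with hPTH(1-34), 11.33, 11.39 and 11.11 with hPTH(1-31), 11.29, 11.28 and 10.97 with PTH(1-36), and 10.85, 10.90 and 10.70 with bPTH(3-34). It had 10.93, 11.10 and 10.91 with hPTH(7-34) and 10.95, 10.94 and 10.76 with bPTH(7-34). All 9 intact arrays were above all 3 bPTH(3-34) arrays, but hPTH(1-34) and hPTH(1-31) alone stayed clear of the vehicle arrays, and PTH(1-36) replicate 3 lay within them. The mean of the intact analogs was 1.33-fold higher than bPTH(3-34) (+0.41 ± 0.09, adjusted p = 0.00354), a call that held without any 1 array (adjusted p up to 0.0401). Against vehicle it was at +0.27 ± 0.09 (adjusted p = 0.0529) and against hPTH(7-34) at +0.25 ± 0.09 (adjusted p = 0.0676), neither called. Replicate 3 was the lowest array of Cdkn1a in every group. With the replicate number as a block, Cdkn1a was called in both of these comparisons and with each intact analog against vehicle. The labels do not say that a replicate number marks a shared preparation.

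Cdkn1b, which encodes p27, the inhibitor that rises in resting cells, had a difference of +0.01 ± 0.07 from vehicle over the intact analogs, with a 95% interval of -0.13 to 0.15. Cdkn1c, the related p57, was at -0.11 ± 0.09 from vehicle and at -0.27 ± 0.09 from bPTH(3-34) (adjusted p = 0.0604). Cdkn2c, which encodes p18, an inhibitor of Cdk4 and Cdk6, had 6.79, 6.67 and 6.71 with vehicle, 6.48, 6.51 and 6.39 with hPTH(1-34), 6.62, 6.40 and 6.68 with hPTH(1-31) and 6.83, 6.74 and 7.01 with PTH(1-36). The truncated analogs gave 6.70, 6.67 and 6.75 with bPTH(3-34), 6.94, 6.70 and 6.74 with hPTH(7-34) and 6.63, 6.69 and 6.76 with bPTH(7-34). The hPTH(1-34) arrays were below vehicle and the PTH(1-36) arrays overlapped it from above. The difference between PTH(1-36) and hPTH(1-34) was +0.40 ± 0.09 (95% interval 0.20 to 0.60), but it was not called over all genes (adjusted p = 0.532).

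Among the 3 transcription factors, Myc, which drives growth and ribosome genes and is itself switched on by mitogens (cluster 17311846; chr15:61985341-61990361), had the largest fall. Its signals were 6.86, 7.19 and 7.05 with vehicle, 6.65, 6.34 and 6.60 with hPTH(1-34), 6.66, 6.75 and 6.41 with hPTH(1-31) and 6.58, 6.54 and 6.50 with PTH(1-36). With the truncated analogs it had 6.81, 6.66 and 6.74 for bPTH(3-34), 7.07, 7.21 and 6.96 for hPTH(7-34), and 7.30, 7.09 and 6.76 for bPTH(7-34). All 9 intact arrays and the 3 bPTH(3-34) arrays were below the vehicle arrays. The difference was -0.50 ± 0.13 with hPTH(1-34) (adjusted p = 0.0197), -0.49 ± 0.13 with PTH(1-36) (adjusted p = 0.0256) and -0.43 ± 0.13 with hPTH(1-31), not called (adjusted p = 0.0511). It was -0.30 ± 0.13 with bPTH(3-34), not called (adjusted p = 0.807). The mean of the intact analogs was 28.0% lower than vehicle (adjusted p = 0.00540) and 30.3% lower than hPTH(7-34) (adjusted p = 0.00227), while its difference from bPTH(3-34) was -0.18 ± 0.11 (95% interval -0.40 to 0.05). The call against hPTH(7-34) held without any 1 array. The call against vehicle was lost without vehicle replicate 2 (adjusted p = 0.0590), that of hPTH(1-34) when replicate 2 or 3 of vehicle or replicate 2 of the analog was left out, and that of PTH(1-36) under 5 of 6 omissions, all but vehicle replicate 1.

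E2f1, the factor released when cyclin D kinases act on the retinoblastoma protein, had 6.20, 6.24 and 6.64 with vehicle and 6.08, 5.77 and 6.00 with hPTH(1-31). It fell with hPTH(1-31) (-0.41 ± 0.12, adjusted p = 0.0379) and, over the intact analogs, against bPTH(3-34) (-0.32 ± 0.10, adjusted p = 0.0339). Vehicle replicate 3 lay above the other vehicle arrays, and the hPTH(1-31) call was lost when it, or hPTH(1-31) replicate 2 or 3, was left out (highest adjusted p 0.194). The call against bPTH(3-34) was lost without bPTH(3-34) replicate 2 or 3, hPTH(1-34) replicate 2, hPTH(1-31) replicate 2 or PTH(1-36) replicate 1. Foxm1, the factor that turns on G2 and mitosis genes, was lower than vehicle with each intact analog (-0.21, -0.12 and -0.26 with hPTH(1-34), hPTH(1-31) and PTH(1-36)) and was not called in any comparison.

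**Figure D4:**
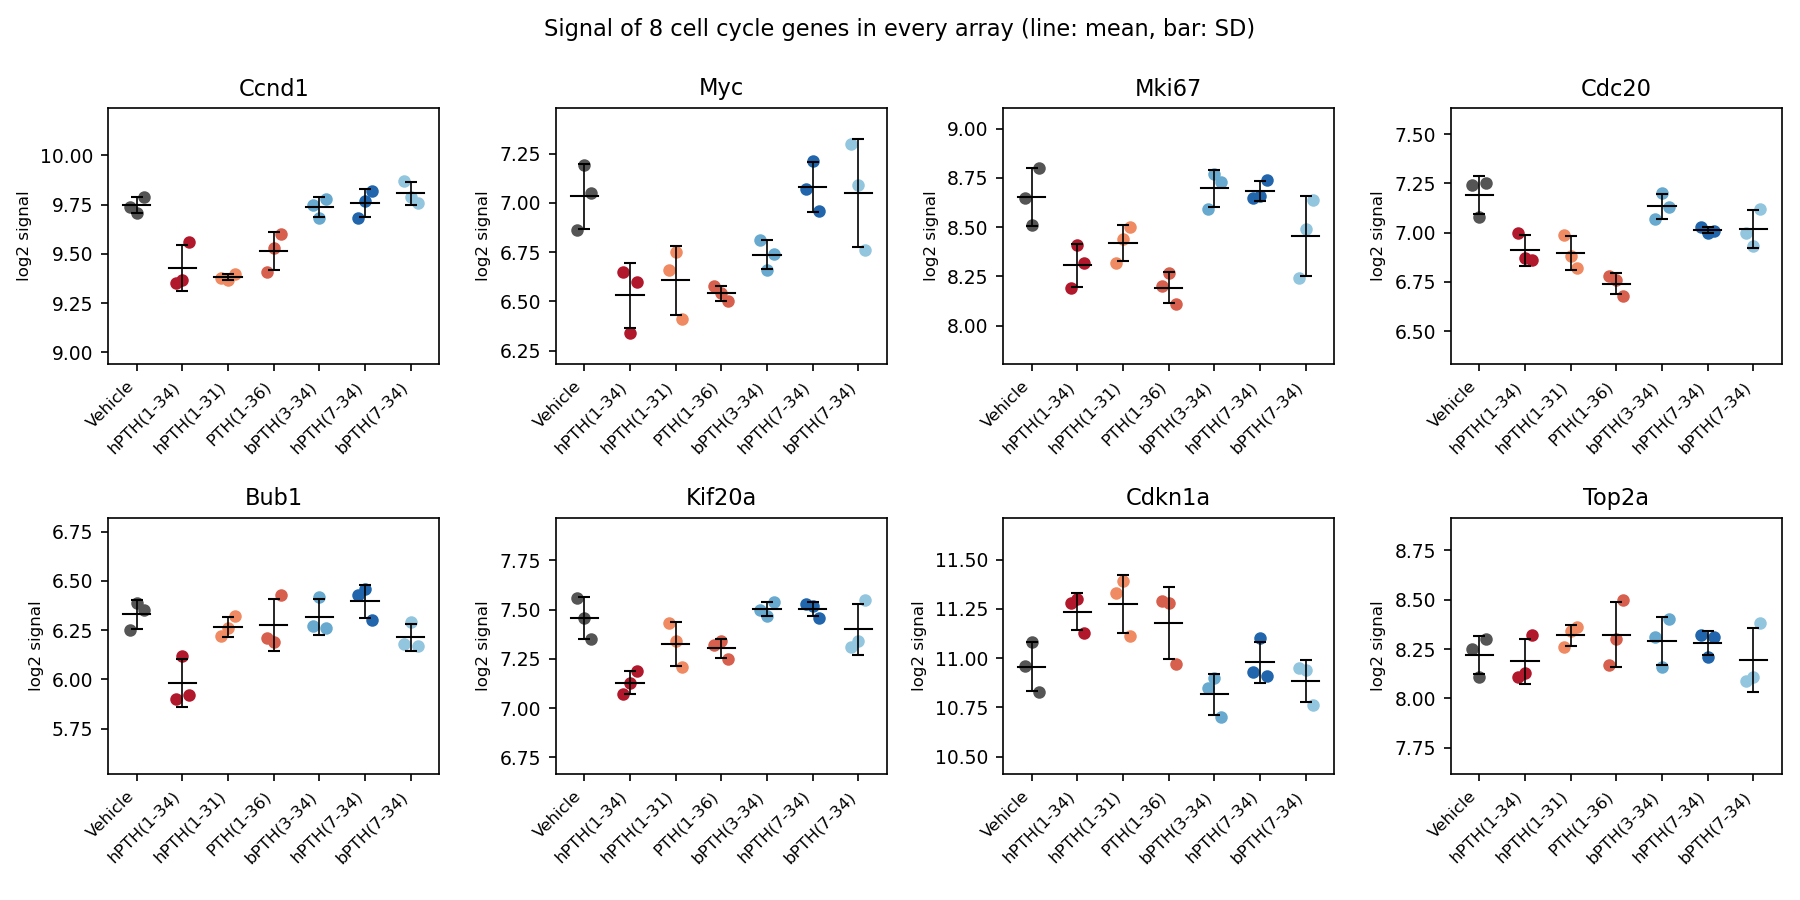
Log2 signal of 8 cell cycle genes in every array of the 7 groups (points), with the group mean (line) and SD of 3 arrays (bar); every panel spans 1.3 log2 units. The intact arrays lie below vehicle for Ccnd1, Myc, Mki67 and Cdc20, Bub1 and Kif20a are lowest with hPTH(1-34), all 9 intact arrays of Cdkn1a lie above its bPTH(3-34) arrays though 1 lies within the vehicle arrays, and the Top2a arrays of all groups overlap.

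Of the 9 DNA replication genes, 1 was called: Mcm6, a subunit of the helicase that opens replication origins. It had 7.76, 7.69 and 7.72 with vehicle, 7.52, 7.46 and 7.23 with hPTH(1-34), 7.46, 7.41 and 7.40 with hPTH(1-31), and 7.60, 7.54 and 7.70 with PTH(1-36). Values with the truncated analogs were 7.80, 7.59 and 7.70 with bPTH(3-34), 7.80, 7.54 and 7.79 with hPTH(7-34) and 7.68, 7.59 and 7.77 with bPTH(7-34). The hPTH(1-34) and hPTH(1-31) arrays were below all vehicle arrays, while a PTH(1-36) array overlapped them. It fell with hPTH(1-34) (-0.32 ± 0.09, adjusted p = 0.0418) and over the intact analogs (-0.24 ± 0.08, adjusted p = 0.0471), and was at -0.30 ± 0.09 with hPTH(1-31), not called (adjusted p = 0.0579). The hPTH(1-34) call was lost under 5 of 6 omissions, all but hPTH(1-34) replicate 1, and that over the intact analogs under 10 of 12, all but hPTH(1-34) replicate 1 and PTH(1-36) replicate 3. The related helicase subunits Mcm2, Mcm3, Mcm4 and Mcm5 had differences from vehicle of -0.07 to -0.15 over the intact analogs, none called.

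Cdc6, which loads the helicase onto origins, had 5.24, 5.26 and 5.34 with vehicle and 4.95, 5.08 and 4.68 with hPTH(1-34), so that these groups did not overlap. Its difference of -0.38 ± 0.12 was just outside the threshold (adjusted p = 0.0516). Pcna, the sliding clamp of DNA polymerase, had a difference of +0.16 ± 0.08 over the intact analogs (95% interval -0.01 to 0.34). The nucleotide synthesis enzymes Rrm2 (ribonucleotide reductase) and Tyms (thymidylate synthase) were at +0.04 and +0.13, and none of these 4 was called in any comparison.

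None of the 4 genes of the S, G2 and M phase engine was called in any comparison. Ccna2, cyclin A2, had 8.05, 7.91 and 7.96 with vehicle and 7.71, 7.74 and 7.72 with hPTH(1-34). Those groups did not overlap, and the difference was -0.25 ± 0.08 (adjusted p = 0.0763). Ccnb2, cyclin B2, was at -0.24 ± 0.10 with hPTH(1-34) and at -0.05 with both other intact analogs. Cdk1, the kinase that these cyclins activate, had 7.18, 7.17 and 7.21 with vehicle and 6.99 to 7.44 over the intact arrays, with a mean difference of +0.08 ± 0.08 (95% interval -0.10 to 0.25). Cdc25c, the phosphatase that activates Cdk1, was above the vehicle mean in all 6 analog groups by 0.04 to 0.46, and its signal was the lowest of the 43 genes.

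The mitotic kinases and the spindle checkpoint were lower than vehicle with hPTH(1-34) in 8 of 8 genes, with a median difference of -0.27, and Bub1 and Cdc20 were called. Cdc20 activates the anaphase-promoting complex, which lets chromosomes part (cluster 17429177; chr4:118432901-118437343). It had 7.24, 7.08 and 7.25 with vehicle, 7.00, 6.87 and 6.86 with hPTH(1-34), 6.99, 6.88 and 6.82 with hPTH(1-31), and 6.78, 6.76 and 6.68 with PTH(1-36). The truncated analogs gave 7.07, 7.20 and 7.13 with bPTH(3-34), 7.03, 7.00 and 7.01 with hPTH(7-34) and 7.00, 6.93 and 7.12 with bPTH(7-34). Every intact array was below every vehicle array, and the PTH(1-36) arrays were below all others. The difference from vehicle was -0.28 ± 0.08 with hPTH(1-34) (adjusted p = 0.0340), -0.29 ± 0.08 with hPTH(1-31) (adjusted p = 0.0259) and -0.45 ± 0.08 with PTH(1-36) (adjusted p = 0.00101). Over the intact analogs, Cdc20 was 21.1% lower than with vehicle (adjusted p = 0.00132) and 17.9% lower than with bPTH(3-34) (adjusted p = 0.00586). Against hPTH(7-34) it was at -0.16 ± 0.07, not called (adjusted p = 0.105).

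The PTH(1-36) call of Cdc20 and that of the intact analogs against vehicle held without any 1 array, and the call against bPTH(3-34) was lost without bPTH(3-34) replicate 2 (adjusted p = 0.0523). The hPTH(1-34) and hPTH(1-31) calls were each lost without vehicle replicate 1 or 3 or without replicate 2 or 3 of the analog (adjusted p up to 0.119 and 0.110). Bub1, a checkpoint kinase at the kinetochore, had 6.25, 6.39 and 6.35 with vehicle and 5.90, 6.12 and 5.92 with hPTH(1-34), but 6.22, 6.26 and 6.32 with hPTH(1-31) and 6.21, 6.19 and 6.43 with PTH(1-36). It had 6.27, 6.42 and 6.26 with bPTH(3-34), 6.43, 6.46 and 6.30 with hPTH(7-34) and 6.18, 6.29 and 6.17 with bPTH(7-34). The hPTH(1-34) arrays were below all other arrays of the series, and the other 2 intact analogs overlapped vehicle. Bub1 fell with hPTH(1-34) (-0.35 ± 0.09, adjusted p = 0.0169) and over the intact analogs against hPTH(7-34) (-0.22 ± 0.07, adjusted p = 0.0473). Leaving out vehicle replicate 2 or 3, or hPTH(1-34) replicate 1 or 3, ended the hPTH(1-34) call, and the other was lost under 8 of 12 omissions: replicate 1 or 2 of hPTH(7-34), hPTH(1-31) or PTH(1-36), and replicate 1 or 3 of hPTH(1-34).

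Mad2l1, the checkpoint protein that restrains Cdc20, had 6.75, 6.65 and 6.59 with vehicle, 6.32, 6.40 and 6.50 with hPTH(1-34), 6.88, 6.65 and 6.85 with bPTH(3-34) and 6.92, 6.85 and 6.82 with hPTH(7-34). The other groups had 6.46, 6.50 and 6.69 with hPTH(1-31), 6.45, 6.57 and 6.70 with PTH(1-36) and 6.63, 6.64 and 6.85 with bPTH(7-34). All intact arrays (6.32 to 6.70) were below the hPTH(7-34) arrays. It fell over the intact analogs against hPTH(7-34) (-0.35 ± 0.08, adjusted p = 0.00447), a call that held without any 1 array, and against bPTH(3-34) (-0.28 ± 0.08, adjusted p = 0.0226), a call lost without bPTH(3-34) replicate 1 or 3. Against vehicle its difference was -0.15 ± 0.08 and was not called. Bub1b, which encodes the checkpoint protein BubR1, fell against hPTH(7-34) (-0.27 ± 0.08, adjusted p = 0.0407), a call lost under 9 of 12 omissions, all but hPTH(1-34) replicate 3, hPTH(1-31) replicate 3 and PTH(1-36) replicate 2. The kinases Plk1, Aurka and Aurkb were at -0.15, -0.13 and -0.15 from vehicle over the intact analogs. Birc5, the survivin subunit of the Aurora B complex, had 5.10, 5.11 and 5.43 with vehicle and 4.69, 4.72 and 4.77 with hPTH(1-34), with no overlap and a difference of -0.49 ± 0.16 (adjusted p = 0.0741). None of these 4 was called in any comparison.

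The 6 spindle and kinetochore genes all fell in the comparison of the intact analogs with hPTH(7-34), by 0.25 to 0.41 log2 units. In that comparison 9.22% of all genes and 17.3% of those above the median signal fell. Quantile normalization ended 3 of these 6 calls, those of Kif20a (adjusted p = 0.0619), Tpx2 (adjusted p = 0.0817) and Nusap1 (adjusted p = 0.114). Against vehicle, 3 of the 6 were called with hPTH(1-34), and 0 with hPTH(1-31), with PTH(1-36) or over the intact analogs. All 6 were below vehicle with each intact analog (medians -0.30 with hPTH(1-34), -0.14 with hPTH(1-31) and -0.19 with PTH(1-36)). They were above vehicle with bPTH(3-34) and hPTH(7-34) (medians +0.06 and +0.12) and below it with bPTH(7-34) at 1000 nM (median -0.18), with none of the 6 called with any truncated analog. With quantile normalization, 4 of 6 were above vehicle with bPTH(3-34) and 5 of 6 with hPTH(7-34). Kif20a, a kinesin of cytokinesis, had 7.56, 7.46 and 7.35 with vehicle and 7.07, 7.13 and 7.19 with hPTH(1-34), the lowest arrays of the series. The other groups had 7.43, 7.34 and 7.21 with hPTH(1-31), 7.32, 7.34 and 7.25 with PTH(1-36), 7.50, 7.47 and 7.54 with bPTH(3-34), 7.53, 7.52 and 7.46 with hPTH(7-34) and 7.31, 7.34 and 7.55 with bPTH(7-34). Its difference was -0.33 ± 0.08 with hPTH(1-34) (adjusted p = 0.0183), -0.25 ± 0.07 against bPTH(3-34) (adjusted p = 0.0208) and -0.25 ± 0.07 against hPTH(7-34) (adjusted p = 0.0185). The first call was lost without vehicle or hPTH(1-34) replicate 1 or 2, the second without any bPTH(3-34) array and the third without hPTH(7-34) replicate 1 or 2.

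Kif11, the kinesin that pushes spindle poles apart, had 7.28, 7.11 and 7.17 with vehicle, 6.94, 6.90 and 6.75 with hPTH(1-34) and 7.31, 7.26 and 7.29 with hPTH(7-34). The other groups had 7.06, 6.97 and 7.00 with hPTH(1-31), 6.87, 7.02 and 7.21 with PTH(1-36), 7.20, 7.19 and 7.24 with bPTH(3-34) and 6.81, 6.95 and 7.15 with bPTH(7-34). It was at -0.32 ± 0.10 with hPTH(1-34) (adjusted p = 0.0449), a call lost without any 1 of the 6 arrays, and at -0.32 ± 0.08 against hPTH(7-34) (adjusted p = 0.00971), lost without hPTH(7-34) replicate 1 alone (adjusted p = 0.0522). Tpx2, which builds spindle microtubules and activates Aurora A, had 7.67, 7.42 and 7.46 with vehicle and 6.94, 7.27 and 7.18 with hPTH(1-34). It had 7.42, 7.37 and 7.37 with hPTH(1-31), 7.28, 7.48 and 7.20 with PTH(1-36), 7.44, 7.54 and 7.61 with bPTH(3-34), 7.67, 7.54 and 7.53 with hPTH(7-34) and 7.19, 7.43 and 7.46 with bPTH(7-34). The vehicle and hPTH(1-34) arrays did not overlap, with a difference of -0.39 ± 0.11 (adjusted p = 0.0271) that lost its call without vehicle replicate 1 or hPTH(1-34) replicate 1 or 3. Tpx2 also fell against hPTH(7-34) (-0.30 ± 0.09, adjusted p = 0.0241), a call lost without hPTH(7-34) replicate 1 or 2.

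Cenpf, a large kinetochore and matrix protein of late G2, had 5.96, 5.90 and 6.10 with vehicle, 5.63, 5.64 and 5.94 with hPTH(1-34), 5.80, 5.71 and 5.97 with hPTH(1-31) and 5.78, 5.72 and 5.77 with PTH(1-36). With the truncated analogs it had 6.03, 5.93 and 6.23 with bPTH(3-34), 6.23, 6.09 and 6.22 with hPTH(7-34) and 5.64, 5.77 and 5.95 with bPTH(7-34), and the hPTH(7-34) arrays were above all intact arrays. Its fall against hPTH(7-34) (-0.41 ± 0.09, adjusted p = 0.00390) was the largest of the 6 and held without any 1 array, while that against bPTH(3-34) (-0.29 ± 0.09, adjusted p = 0.0395) was lost under 8 of 12 omissions: replicate 1 or 2 of any intact analog, or bPTH(3-34) replicate 1 or 3. Cenpe, the kinetochore kinesin, had 6.80, 6.76 and 6.86 with vehicle, 6.38, 6.62 and 6.61 with hPTH(1-34), 6.64, 6.63 and 6.76 with hPTH(1-31) and 6.64, 6.61 and 6.52 with PTH(1-36). With the truncated analogs it had 6.71, 6.96 and 7.06 with bPTH(3-34), 6.94, 6.89 and 7.06 with hPTH(7-34) and 6.67, 6.56 and 6.97 with bPTH(7-34), and the hPTH(7-34) arrays were again above all intact arrays. It fell against hPTH(7-34) (-0.36 ± 0.09, adjusted p = 0.00950; lost without hPTH(7-34) replicate 3) and against bPTH(3-34) (-0.31 ± 0.09, adjusted p = 0.0288; lost without bPTH(3-34) replicate 2 or 3). Nusap1, which bundles spindle microtubules, fell against hPTH(7-34) (-0.32 ± 0.10, adjusted p = 0.0389), a call lost under 9 of 12 omissions, all but hPTH(1-34) replicate 3, hPTH(1-31) replicate 3 and PTH(1-36) replicate 2.

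The 2 proliferation markers parted. Mki67, the antigen Ki-67 that dividing cells carry (cluster 17497334; chr7:135689784-135716450), had 8.65, 8.51 and 8.80 with vehicle, 8.19, 8.41 and 8.32 with hPTH(1-34), 8.32, 8.44 and 8.50 with hPTH(1-31), and 8.20, 8.27 and 8.11 with PTH(1-36). It had 8.59, 8.77 and 8.73 with bPTH(3-34), 8.65, 8.66 and 8.74 with hPTH(7-34) and 8.24, 8.49 and 8.64 with bPTH(7-34). All intact arrays were below all vehicle arrays, the highest intact array (8.50) just under the lowest vehicle array (8.51). Mki67 fell with PTH(1-36) (-0.46 ± 0.10, adjusted p = 0.00892) and with hPTH(1-34) (-0.35 ± 0.10, adjusted p = 0.0468), and was at -0.23 ± 0.10 with hPTH(1-31), not called (adjusted p = 0.222).

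Over the intact analogs Mki67 was 21.4% lower than with vehicle (adjusted p = 0.0104), 23.7% lower than with bPTH(3-34) (adjusted p = 0.00422) and 23.0% lower than with hPTH(7-34) (adjusted p = 0.00499). The PTH(1-36) call and those against the 2 truncated analogs held without any 1 array, the call of the intact analogs against vehicle was lost without vehicle replicate 3 (adjusted p = 0.0924), and the hPTH(1-34) call under 5 of 6 omissions, all but vehicle replicate 2. Top2a, the topoisomerase that untangles chromosomes, had 8.25, 8.11 and 8.30 with vehicle and 8.11 to 8.50 over the intact arrays. Its difference over the intact analogs was +0.06 ± 0.08, with a 95% interval of -0.12 to 0.24. The difference between the changes of the 2 markers was not tested.

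The intact analogs were compared with each other at their common dose of 100 nM, in 2 pairs tested over all genes. hPTH(1-31), which ends a few residues earlier than hPTH(1-34), had 0 of the 43 genes called against it (0% of all genes). At an unadjusted p under 0.05, 4 of the 43 passed, where 994 of all 22180 genes did. All 4 were higher with hPTH(1-31): Bub1 (+0.29, 95% interval 0.10 to 0.47), Tpx2 (+0.26, 0.03 to 0.48), Cdc6 (+0.28, 0.04 to 0.52) and Kif20a (+0.20, 0.02 to 0.37). PTH(1-36), which runs a few residues longer, also had 0 called, where 0.00451% of all genes were. At an unadjusted p under 0.05, 7 of the 43 passed, where 1423 of all 22180 genes did. Of the 7, 6 were higher with PTH(1-36), namely Cdkn2c, Bub1, Cdc6, Aurka, Mcm6 and Bub1b (+0.19 to +0.40), and Cdc20 was lower (-0.17, -0.34 to -0.00). In both pairs the median difference of the 43 genes was +0.11. Over all genes it was +0.003 for hPTH(1-31) and 0 for PTH(1-36). For Ccnd1 the intervals were -0.21 to 0.12 for hPTH(1-31) and -0.08 to 0.25 for PTH(1-36), and for Mki67 -0.11 to 0.33 and -0.33 to 0.11. Among the 3 intact analogs, hPTH(1-34) gave the lowest mean for 29 of the 43 genes. The share of all genes that were lowest with hPTH(1-34) is not given here. Both pairs share the hPTH(1-34) arrays, and with no gene called they do not show that the analogs act alike.

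Other genes of the cell cycle were counted in 5 further lists, of which 147 of 157 genes were measured. Of these, 139 lay above the median signal. With hPTH(1-34), 7 of the 147 rose (4.76%) and 18 fell (12.2%), with a median of -0.17, where 3.9% of all genes and 7.02% of those above the median signal rose and 4.74% and 8.85% fell. Over the intact analogs 12 rose (8.16%) and 21 fell (14.3%) against vehicle, with a median of -0.11, where 5.45% of all genes and 9.85% of those above the median signal rose and 6.49% and 11.9% fell. The counts over the intact analogs are thus close to those of genes of similar signal, and the lists below are read against the same shares. Of 45 further mitosis genes, 2 rose (4.44%) and 7 fell (15.6%) over the intact analogs, with 38 below 0 and a median of -0.16. Anln (-0.42 ± 0.07, adjusted p = 0.000234) and Racgap1 (-0.30 ± 0.07), which build the cleavage furrow, and the midzone kinesin Kif23 (-0.42 ± 0.09) fell, while Kif22, a chromosome-arm kinesin, rose (+0.37 ± 0.09). Of 28 further replication genes, 3 fell and none rose, and the 10.7% that fell is below the 11.9% of genes above the median signal. They were Rrm1 (-0.26 ± 0.07), Dut (-0.31 ± 0.09) and Pola2 (-0.36 ± 0.11). The licensing factor Cdt1 was at -0.23 ± 0.08 (adjusted p = 0.0647).

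Among 18 further cyclins, kinases and their activators, 3 rose (16.7%) and 2 fell (11.1%), where 9.85% and 11.9% of genes above the median signal did. Wee1, the kinase that holds Cdk1 inactive before mitosis, had the lowest difference of the genes named here (-0.73 ± 0.10, adjusted p = 4.10e-05), with -0.84, -0.67 and -0.70 for hPTH(1-34), hPTH(1-31) and PTH(1-36), each called, and -0.11 to 0.04 for the truncated analogs. Cdk14 fell (-0.31 ± 0.07), and Ccnt1 (+0.53 ± 0.09) and Cdk7 (+0.34 ± 0.07), which act in transcription, rose. Of 31 brakes on the cycle, 3 rose (9.68%) and 7 fell (22.6%), against the same shares. The antiproliferative Tob1 rose (+0.61 ± 0.08) and its relative Btg2 fell (-0.35 ± 0.08), as did the p53 target Sesn1 (-0.54 ± 0.08) and the retinoblastoma relative Rbl2 (-0.32 ± 0.07). Of 25 genes of the E2F, MYB and MYC network, 4 rose (16.0%) and 2 fell (8%), again against 9.85% and 11.9%. Mxd1 (+0.77 ± 0.09) and Mnt (+0.42 ± 0.10), which compete with Myc for its partner Max, rose, while Mxd4 (-0.61 ± 0.07), of the same family, and the E2F partner Tfdp2 (-0.38 ± 0.08) fell.

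**Figure D5:**
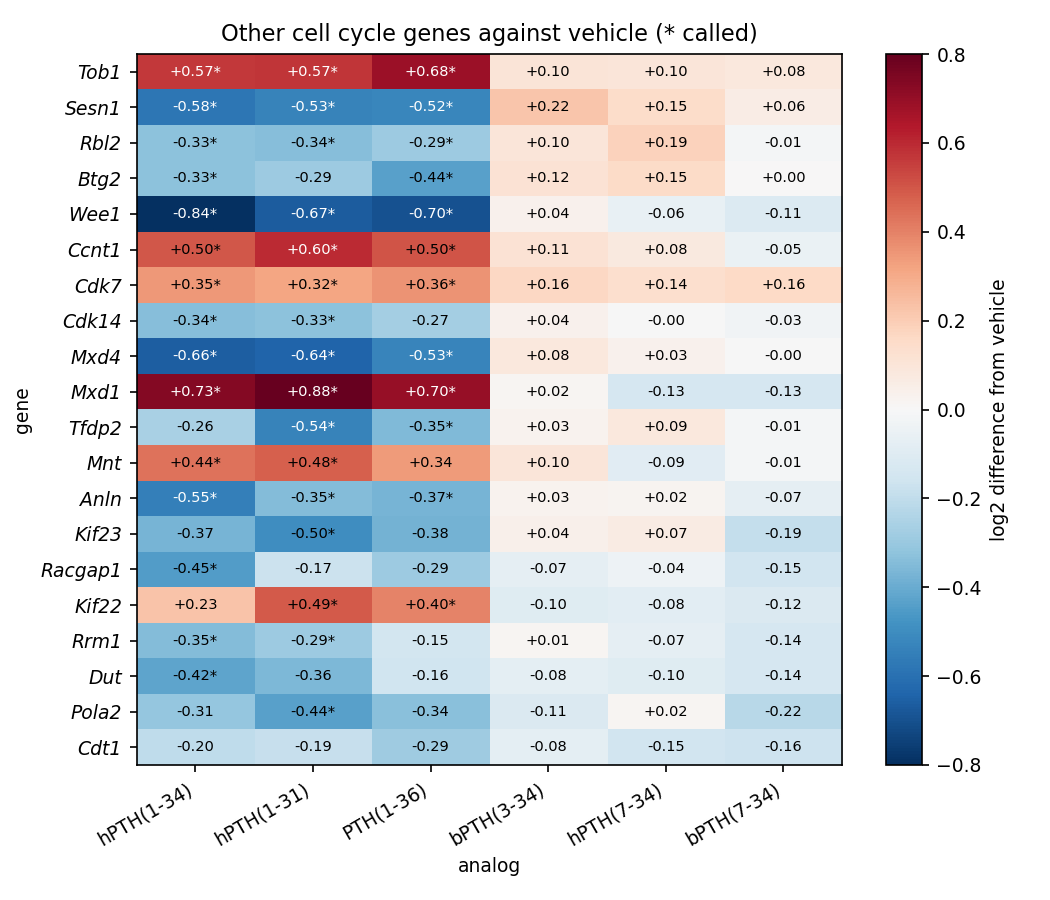
Log2 difference from vehicle for the named genes of the 5 further cell cycle lists (rows) with each analog (columns; 100 nM, bPTH(7-34) at 1000 nM), with an asterisk where limma's adjusted p was under 0.05. Asterisks stand in the 3 intact columns alone, with Wee1 at -0.84, -0.67 and -0.70 and Mxd1 at +0.73, +0.88 and +0.70. The genes were named by the smallest adjusted p over the intact analogs against vehicle, which favours asterisks in the intact columns. Of all 22180 genes, 0 were called with bPTH(3-34), 16 with hPTH(7-34) and 0 with bPTH(7-34). The lack of asterisks in those columns is therefore not particular to these genes.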

How the data were processed

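The log2 values deposited by the authors, 1 per transcript cluster and array, were normalized by RMA in Affymetrix Expression Console, per the submitters' processing notes. The log2 scale was read from the method and the range (0.25 to 13.6), since no base is stated. Of 41345 clusters, 23521 carried 1 gene symbol in the platform annotation and gave 22180 genes, the cluster of highest mean standing for a gene with several. A 7-group model was fitted to all genes and all 21 arrays with limma 3.58.1 (lmFit and eBayes, R 4.3.3), with two-sided p-values adjusted by Benjamini-Hochberg over all genes and a gene called at an adjusted p under 0.05. Errors in the text are limma's standard errors, and 3 arrays per group limit the precision. The fits were tested on simulated data. Alternatives changed the prior, the arrays fitted, the signal filter, the scaling, the handling of clusters and the replicates used. No deposited column was left unused.

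The members and lists were chosen with earlier results of these data known. All 45 members are accounted for: those called in any contrast are given with change, SE and adjusted p, and up to 14 with the smallest F test p with every array. The Cdkn1 family, Ccnd1, Mki67, Top2a and Myc are described whatever their p. Up to 4 genes of each further list were named by the smallest adjusted p over the intact analogs against vehicle. Ccnb1 and Ccne2 were not analysed here.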

Additional observations from a re-analysis of the deposited data

How the results depend on the processing

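The counts of the 43 genes called moved as follows, and the causes were not tested beyond what each alternative changes. How many of all genes were called is given below for the replicate block alone. The other counts are therefore not set against a background and describe only how far the calls moved. With a trend and robust prior, 7 were called with hPTH(1-31), 11 with the intact analogs against vehicle and 17 by the F test. With only the arrays of the groups compared, which leaves fewer arrays to estimate the spread, 0 were called with each of hPTH(1-34), hPTH(1-31) and PTH(1-36). With genes under the median signal left out, which tests fewer genes, the counts were 17 with hPTH(1-34), 7 with hPTH(1-31), 11, 19 and 21 for the intact analogs against vehicle, bPTH(3-34) and hPTH(7-34), and 18 by the F test. Quantile normalization gave 5 with hPTH(1-31), 7 against bPTH(3-34) and 5 by the F test. It gave 9 against hPTH(7-34), and over all comparisons it ended 12 calls (Cdc20, Kif11 and Mki67 with hPTH(1-34); Cdk4, E2f1, Cenpe and Cenpf against bPTH(3-34); Bub1, Bub1b, Kif20a, Nusap1 and Tpx2 against hPTH(7-34)) and made 7. Centring arrays on their median ended 7 calls and made 1, and testing all clusters ended 17. Testing all transcript clusters gave 4 with hPTH(1-34), 1 with hPTH(1-31), 6 against bPTH(3-34) and 4 by the F test. Leaving out 1 array gave 3 to 4 with hPTH(1-34), 2 to 3 with hPTH(1-31), 2 to 3 with PTH(1-36), 3 to 7, 4 to 13 and 6 to 14 for the intact analogs against vehicle, bPTH(3-34) and hPTH(7-34), 4 to 10 by the F test, and 0 for the truncated analogs and the analog pairs. Over single genes, 7098 comparisons under an alternative kept their side of the threshold, 180 lost a call, 118 gained one and 0 changed direction while called. The replicate numbers were not stated to mark a shared preparation. Arrays of the same number correlated at -0.08 to 0.16 in their deviations (median 0.03), and arrays of different number at -0.14 to 0.09 (median -0.01). Of 21 arrays, 14 correlated best with their own number, as a hint from the data. With the replicate number as a block, 12 genes were called with hPTH(1-34), 6 with hPTH(1-31) and 4 with PTH(1-36). Over all 22180 genes, the block called 2190, 2179 and 1945 in that order, where the main fit called 1917, 1930 and 1603. Over all comparisons the block made 15 calls among the 43 genes.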
